A study of Mus musculus with 11 samples.

Results

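The expression of 10 transporter genes, named for the canalicular and sinusoidal membranes of hepatocytes, was followed in mouse liver: Slc10a1, Slco1b2, Slco1a4, Slco2a1, Abcb11, Abcb4, Abcc2, Abcc3, Abcg5 and Abcg8. They were found by gene symbol in the platform annotation, which gave 17 of the 22690 probe sets on the array, and all 10 genes passed the filter on dim probe sets, among 7924 tested of 12393 genes on the array. The RNA came from the livers of 11 male mice on a mixed background, with 1 oligonucleotide array per mouse, in a study of a high-fat diet and of muscle growth driven by Akt1. Wild-type mice received the control diet (CN, n = 3) or the high-fat diet (CH, n = 4), and Akt1 double transgenic mice, labelled DTG, received the high-fat diet (DH, n = 4). No transgenic mice on the control diet were profiled here, so the effect of the transgene was measured on the high-fat diet alone. Every mouse, the wild-type controls included, had doxycycline for 3 weeks. Muscle hypertrophy is recorded for DH and for neither wild-type group, and the promoters of the transgenes, the ages and the length of the diets are not given in the sources used here.

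Hepatocytes are polarised cells that face blood on one side and bile on the other. Carriers of the sinusoidal membrane take up bile acids and organic anions from blood, and ATP-driven pumps of the canalicular membrane export bile salts, phospholipid, sterols and conjugates into bile. ABC pumps of the basolateral membrane can return conjugates to blood. Bile salts act on nuclear receptors such as FXR, which adjusts many of these genes to the bile acid load.

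The values are MAS5 signals, a linear brightness per probe set that is comparable between arrays for the same probe set but not between probe sets. Median signals lay between 97.2 and 118 on the 11 arrays. DH arrays 3 and 4 had higher top signals (42426 and 43273) than the other 9 (27780 to 35450), and DH array 3 had the highest Gapdh 3'/5' ratio, 0.823, against 0.669 to 0.768 without arrays 3 and 4. The mean signal of the poly-A spike controls was 92.1 on DH array 3 and 332 on DH array 4, against 231 to 372 on the other 9. Mean Spearman correlations with the remaining arrays were 0.940 and 0.943 for DH arrays 3 and 4, against 0.948 to 0.951. The hepatocyte markers Alb, Apoa1 and Ttr had signals of at least 20218 on every array. The bile duct markers Krt19 and Epcam were dim, at 4.6 to 120 over all arrays.

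Slco2a1, a prostaglandin carrier, had the widest gap between groups, with a signal on the high-fat diet in wild type at 0.462 of that on the control diet. Abcc2, the canalicular pump for organic anion conjugates, was lowest in the transgenic mice, at 0.587 of the control-diet level. There Abcc3 stood at 0.580 of its own control-diet level, with a wider spread between arrays. The 95% intervals of Abcc3 and Slco1a4 included 0 in every comparison. The bile salt, phospholipid and sterol pumps and the main bile acid uptake carriers had 95% intervals that included 0 in every comparison. None of the 10 passed an adjusted p of 0.05 in any comparison in limma's test, adjusted over all 7924 genes.

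**Figure D1:**
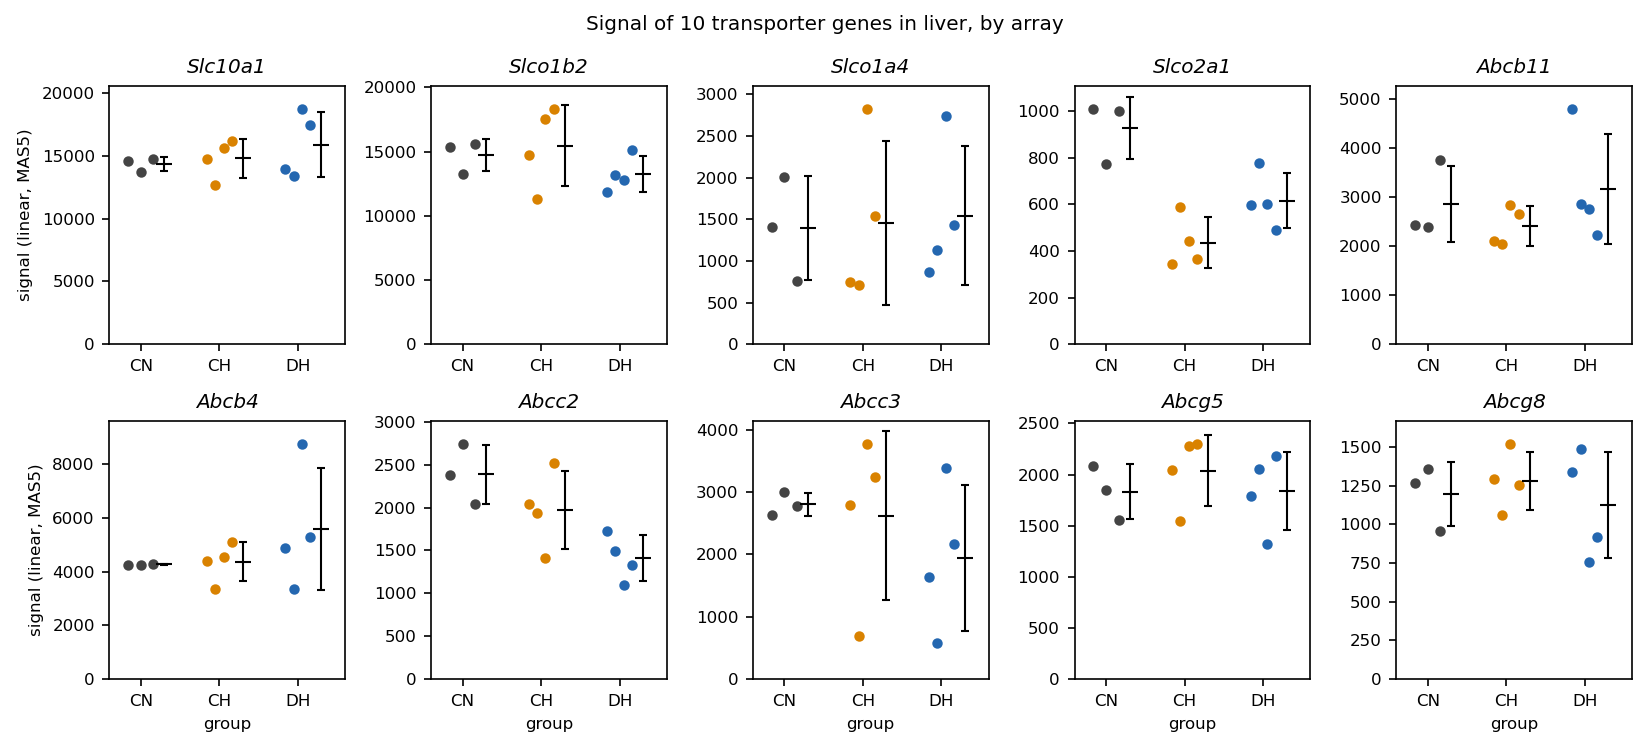
Linear MAS5 signal (vertical axis, from 0) of the probe set that stands for each of the 10 genes, by group: CN, wild type on the control diet; CH, wild type on the high-fat diet; DH, Akt1 double transgenic on the high-fat diet. Each point is 1 mouse, and the bar at the right of each group is the mean with its SD; Slco2a1 in CH lies below CN without overlap, and Abcc2 in DH lies below CN without overlap.

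For the diet in wild type (CH against CN), 0 of 7924 genes passed, or 0% as background, and 0 of the 10 transporters passed. At an unadjusted p under 0.05 there was 1 transporter of 10, Slco2a1, against 7.02% of all genes. Arrays of the groups did not overlap for 1 of 10, again Slco2a1, against 7.91% of all genes. The median log2 difference of the 10 was -0.027 (0.0067 over all genes tested), with 5 above 0 and 5 below.

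For the transgene on the high-fat diet (DH against CH), 29 genes passed, or 0.366% as background, and again 0 of the 10. Slco2a1 and Abcc2 had an unadjusted p under 0.05, so 2 of 10 against 13.7% of all genes. Arrays overlapped for all 10, where 8.4% of all genes had no overlap. The median of the 10 was -0.033 (0.0010 over all genes), with 5 above 0 and 5 below.

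Transgenic high-fat mice against wild type on the control diet (DH against CN) differ in diet and genotype together, and this comparison shares its arrays with both of the others. Here 165 genes passed, or 2.08%, and 0 of the 10. Slco2a1 and Abcc2 made up the 2 with an unadjusted p under 0.05, against 18.3% of all genes, and Abcc2 the 1 without overlap, against 15.6%. The median was -0.067 (0.0041 over all genes), with 4 above 0 and 6 below. These shares lie close to the background. Over the 3 comparisons, the members' 95% intervals reached 0.26 to 1.31 to either side on the log2 scale. Each group had 3 or 4 arrays, which limits precision. The intervals are not adjusted over all genes, so a gene whose interval leaves out 0 can still fail the adjusted test.

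**Figure D2:**
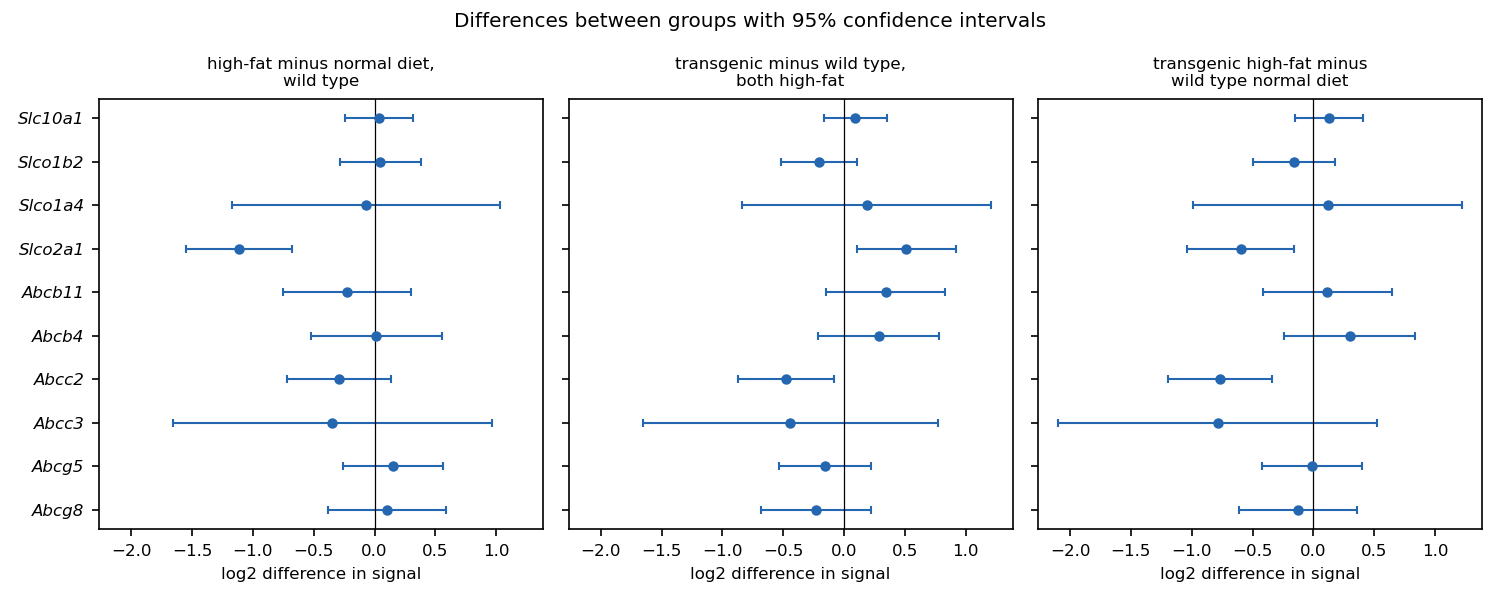
Log2 difference in signal (horizontal axis) of each transporter gene in the 3 comparisons, with limma's 95% confidence interval. Intervals leave out 0 for Slco2a1 in all 3 panels and for Abcc2 in the middle and right panels, before adjustment over all genes; Slco1a4 and Abcc3 have the widest intervals.

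Slc10a1 encodes NTCP, the sodium-dependent carrier that takes up conjugated bile acids from sinusoidal blood. Its brighter probe set had signals of 14578, 13731 and 14732.5 in CN, 14704, 12674, 15624 and 16198 in CH, and 13979.7, 13369, 18678.5 and 17442 in DH. The groups overlap, and the highest values are DH arrays 3 and 4. The log2 differences were 0.039 ± 0.13 (SE) for diet and 0.092 ± 0.12 for the transgene (limma adjusted p = 0.964 and 0.771). Without DH arrays 3 and 4 the latter was -0.11. The second probe set varied less within CH and DH but not within CN, at 11671 to 12888 in CN, 10549 to 12869 in CH and 11687 to 12353.5 in DH. Its 95% intervals ran from -0.26 to 0.21 for diet and from -0.21 to 0.21 for the transgene.

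Slco1b2 encodes OATP1B2, an organic anion carrier of the sinusoidal membrane for bilirubin conjugates, bile acids and many drugs. The probe set of highest mean had 15337.5, 13293.5 and 15593 in CN, 14742, 11329, 17504 and 18281 in CH, and 11849.8, 13183, 12770 and 15139.5 in DH. The DH values lie within the CH range, and CH array 2 is the lowest of all. The log2 difference for the transgene was -0.21 ± 0.14, with a 95% interval of -0.52 to 0.10 (limma adjusted p = 0.557). Of the other 4 probe sets, 2 were bright and had the same sign for the transgene, at -0.41 ± 0.19 and -0.13 ± 0.20. The remaining 2 were dim, with group means of 59.8 to 86.9, and had 0.067 ± 0.38 and 0.97 ± 0.62. For diet the 3 bright probe sets had 0.048, 0.16 and -0.19, so they did not share a sign. Over the 11 arrays the probe set of highest mean had r = 0.368 and 0.677 with the other 2 bright ones. Its name ends in _s_at, which marks probes that may match more than a single transcript.

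Slco1a4 encodes OATP1A4, a related carrier of organic anions and steroid conjugates. Its signals were 1412, 2010.5 and 762.5 in CN, 753, 708, 2818 and 1539.6 in CH, and 871, 1129.7, 2746 and 1433 in DH. Each group spans at least a 2.64-fold range, and the highest values of both high-fat groups are their arrays numbered 3. The differences were -0.069 ± 0.51 for diet and 0.19 ± 0.47 for the transgene (limma adjusted p = 0.98 and 0.895). The sign of each depended on single arrays: the diet difference was 0.25 without CN array 2, 0.17 without CH array 1 and 0.20 without CH array 2. The transgene difference was -0.14 without DH array 3, -0.052 without CH array 1 and -0.081 without CH array 2.

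Slco2a1 encodes the prostaglandin transporter, which clears prostaglandins from the extracellular space and is known from endothelial cells. The 120 bases before its start in RefSeq (GRCm38.p6, chr9:103008367-103008486, plus strand) are shown because it had the widest gap between groups. The capitals mark a TATAAA match.

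Slco2a1: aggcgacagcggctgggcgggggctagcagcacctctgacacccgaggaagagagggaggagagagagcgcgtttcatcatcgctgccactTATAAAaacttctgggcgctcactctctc

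The letters TATAAA were found on the plus strand 29 bases before the start. They occur, on either strand, in 12.4% of 32851 RefSeq windows of 250 bases before a start.

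The brightest Slco2a1 probe set had signals of 1006, 774 and 999.4 in CN, 344.5, 588, 441 and 366.5 in CH, and 597, 776, 601 and 489 in DH. Every CH array lies below every CN array, and DH lies between, with DH array 2 just above the lowest CN array. Group means were 926 ± 132 (SD, n = 3), 435 ± 110.0 (SD, n = 4) and 616 ± 119 (SD, n = 4). For diet the log2 difference was -1.11 ± 0.20 (SE), with a 95% interval of -1.55 to -0.68 (limma adjusted p = 0.219). This was the third smallest p of 7924 genes. For the transgene the difference was 0.51 ± 0.19, interval 0.11 to 0.92, and for DH against CN it was -0.60 ± 0.20 (limma adjusted p = 0.25 and 0.147). Slco2a1 is thus described by low CH arrays and DH arrays in between, without a call in limma's test.

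The other probe sets of Slco2a1 had the same signs. The next brightest had 371.5, 265 and 298 in CN, 108, 252, 147 and 181 in CH, and 275, 330.1, 193 and 170.2 in DH. The groups CN and CH again did not overlap at it, and the diet difference was -0.91 ± 0.29. The dimmest had a diet difference of -0.80 ± 0.37, with CH array 2 (97.3) inside the CN range of 89.5 to 102. For the transgene they had 0.51 ± 0.27 and 0.53 ± 0.35. Over the 11 arrays the probe sets correlated at r of 0.783 to 0.896, as a description, and all of them read the same 11 RNA samples.

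Most markers of liver endothelial cells lay on the same side as Slco2a1 for diet and for the transgene, but not in DH against CN. For diet 22 of 24 tested markers were below 0, with a median log2 difference of -0.16 (0.0067 over all genes), and 0 passed. For the transgene 19 of 24 were above 0, with a median of 0.19 and 0 passing. In DH against CN, where Slco2a1 had -0.60, 14 of 24 were above 0 with a median of 0.033. Bmp2 fell (-0.60 ± 0.13), so 1 of 24 passed, against 2.08% of all genes. The summed signal of the 24 markers ran from 10783 to 13435 in CN and from 10003 to 11482 in CH. In DH it ran from 10454.8 to 14081, so the groups overlapped. The defining markers were measured in all groups, with Stab2 at 426.5 to 1067, Cdh5 at 91.6 to 237 and Pecam1 at 57.8 to 205. Ehd3 (-0.52 ± 0.14) and Stab1 (-0.35 ± 0.15), an endocytosis protein and a scavenger receptor of these cells, had the smallest p for diet. The part of cell numbers in the Slco2a1 values was not tested. In whole liver RNA, fewer cells of a type and less RNA per cell cannot be told apart.

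**Figure D3:**
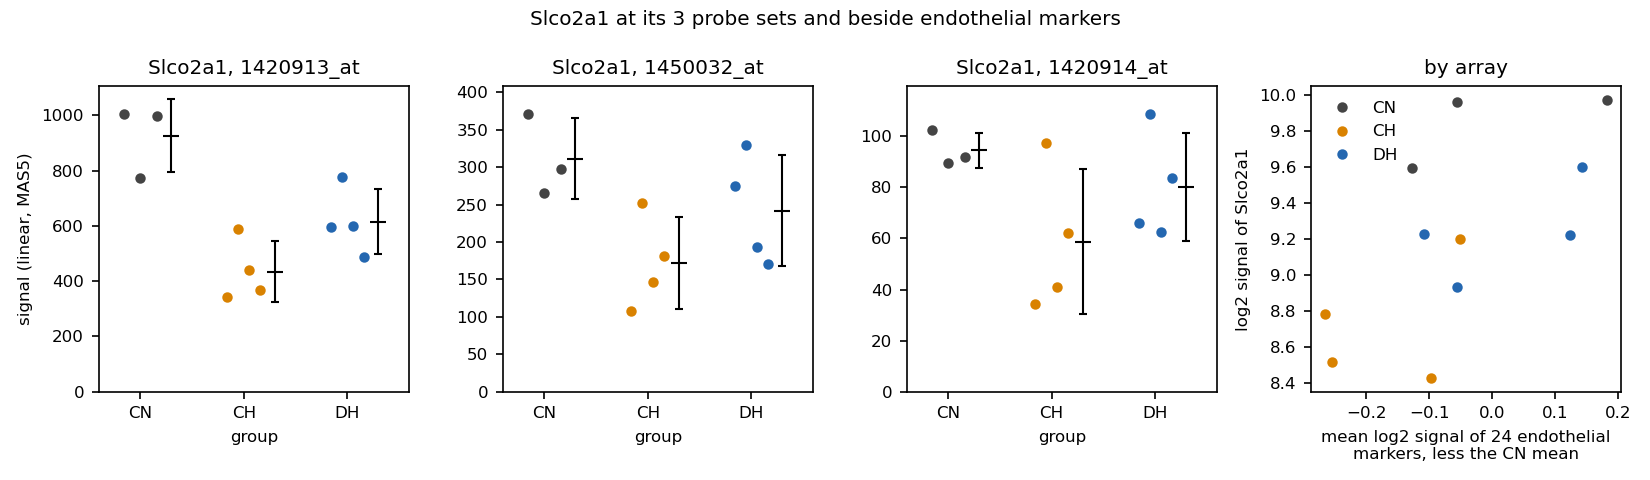
The first 3 panels give the linear signal of each Slco2a1 probe set by group, with 1 point per mouse and the mean with its SD. The right panel sets log2 signal of the brightest probe set against the mean log2 signal of 24 endothelial markers, less its CN mean. Each point is 1 array. All CH arrays lie left of 0, as do CN arrays 2 and 3 and DH arrays 3 and 4. The 11 points had r = 0.625 over all arrays and 0.532 after subtracting group means.

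Abcb11 encodes BSEP, the bile salt export pump of the canaliculus. Its signals were 2433, 2398 and 3758 in CN, 2112, 2036, 2844 and 2666 in CH, and 4789.6, 2869, 2763 and 2221 in DH. The groups overlap, with CN array 3 and DH array 1 standing above the other arrays. The differences were -0.23 ± 0.24 for diet and 0.34 ± 0.22 for the transgene (limma adjusted p = 0.912 and 0.528). Their 95% intervals, -0.76 to 0.30 and -0.15 to 0.83, leave room for changes of moderate size in either direction for diet. The transgene difference was 0.12 without DH array 1 and 0.63 without DH arrays 3 and 4. That of DH against CN, 0.11, was -0.11 without DH array 1.

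Abcb4 encodes MDR2, the floppase that supplies phosphatidylcholine to bile. It had 4256, 4240.1 and 4298 in CN, a range of 1.01-fold. In CH the values were 4404, 3369, 4555.5 and 5107, and in DH they were 4888, 3366, 8734 and 5294. The lowest value in each high-fat group is its array numbered 2, and DH array 3 is the highest of all. The differences were 0.015 ± 0.25 for diet and 0.28 ± 0.23 for the transgene (limma adjusted p = 0.99 and 0.616). Without DH arrays 3 and 4 the transgene difference was -0.088.

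Abcc2 encodes MRP2, which pumps bilirubin glucuronide and glutathione conjugates into bile. The 120 bases before its start (RefSeq, GRCm38.p6, chr19:43782188-43782307, plus strand) are shown because it had the smallest adjusted p of the 10. The capitals mark an AGGTCA match, a site read by many nuclear receptors.

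Abcc2: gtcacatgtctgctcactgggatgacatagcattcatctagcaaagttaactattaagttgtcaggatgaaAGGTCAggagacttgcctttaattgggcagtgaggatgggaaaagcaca

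The letters AGGTCA were searched on both strands and occur in 14% of the 32851 windows of 250 bases. They were found in 4 of the 11 windows of 9 members, those of Abcb11, Slco1b2, Abcc2 and the second start of Slc10a1. TATAAA was found in 5 of the 11, where the windows of Abcg5 and Abcg8 overlap and hold the same TATAAA site, counted once in each. The HNF4 letters CAAAGTCCA and the C/EBP letters TTGCGCAAT, in 0.384% and 0.0487% of all windows, were in none of the 11. No match of AGGTCA overlapped a match of TATAAA.

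Abcc2 had signals of 2380.1, 2737 and 2039.5 in CN, 2038, 1934, 1411 and 2519 in CH, and 1722, 1498, 1095 and 1326 in DH. CH overlaps both other groups, and every DH array lies below every CN array. Group means were 2386 ± 349 (SD, n = 3), 1976 ± 454 (SD, n = 4) and 1410.4 ± 265 (SD, n = 4). The log2 difference was -0.77 ± 0.20 for DH against CN, with a 95% interval of -1.20 to -0.34 (limma adjusted p = 0.0676). For the transgene it was -0.48 ± 0.18, interval -0.87 to -0.080, and for diet -0.29 ± 0.20, interval -0.72 to 0.14 (limma adjusted p = 0.275 and 0.82). Without DH arrays 3 and 4, the transgene difference was -0.27 and that of DH against CN was -0.56 (limma adjusted p = 0.673 and 0.284). The probe set's name ends in _s_at, which marks probes that may match more than a single transcript.

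Hepatocyte markers lay on the other side from Abcc2, with 11 of 11 above 0 for DH against CN, a median of 0.29 and 0 passing. Their mean log2 signal, less the CN mean, was 0.17 and 0.21 in DH arrays 1 and 2. It was 0.58 and 0.57 in DH arrays 3 and 4, and 0.11 to 0.19 in CH. The part of hepatocyte content in the Abcc2 values was not tested. Acute phase proteins, which hepatocytes secrete in inflammation, were higher in the DH arrays. In DH against CN 11 of 23 tested acute phase genes passed as higher and 0 as lower, against 2.08% of all genes passing. The median of the 23 was 0.59 (0.0041 over all genes). Those that passed included Lcn2 (5.83 ± 0.62), Saa2 (4.32 ± 0.75) and Saa1 (3.90 ± 0.40). In DH against CH 5 of 23 passed, against 0.366% of all genes, with a median of 0.65 over the 23. Of the 5 that passed, Saa1 (2.07 ± 0.37), Fgl1 (1.69 ± 0.22) and Il1rn (1.51 ± 0.26) had the largest differences. For diet 0 of 23 passed, with a median of 0.15 and Lcn2 at 2.97 ± 0.62 and Saa1 at 1.82 ± 0.40. The list was chosen with these results known, and its part in the transporter values was not tested.

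Abcc3 encodes MRP3, a basolateral pump that returns glucuronides and bile acids to blood. Its signals were 2630.3, 3007 and 2778.5 in CN, 2791, 689, 3769 and 3248 in CH, and 1634, 578, 3395.5 and 2169.7 in DH. CN stays within a range of 1.14-fold, while CH spans 5.47-fold and DH 5.88-fold. The low values are CH array 2 and DH array 2. The differences were -0.35 ± 0.60 for diet and -0.44 ± 0.56 for the transgene, with intervals of -1.66 to 0.97 and -1.66 to 0.78 (limma adjusted p = 0.945 and 0.766). The diet difference was 0.21 without CH array 2. The transgene difference was 0.057 without DH array 2 and -0.999 without CH array 2 (limma adjusted p = 0.323). In DH against CN the difference was -0.79 ± 0.60, interval -2.10 to 0.53 (limma adjusted p = 0.525), and it was -0.29 without DH array 2. Without DH arrays 3 and 4 the transgene difference was -1.18 and that of DH against CN was -1.53, with limma adjusted p of 0.534 and 0.326.

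The gene most like Abcc3 over the 11 arrays was Nr1i3, which encodes the nuclear receptor CAR, with r = 0.93 and rho = 0.809. Nr1i3 had 3331, 2727 and 2525 in CN, 3139, 1140.1, 3668 and 3795 in CH, and 2398, 1443 and, in DH arrays 3 and 4, 3371 and 3357. Its lowest values are the same CH array 2 and DH array 2. After group means were subtracted, r was 0.953. In the same way Abcc3 had r = 0.872 with Abcb4 and 0.867 with Slc10a1, so it was not like Nr1i3 alone. A link between Nr1i3 and Abcc3 was not tested.

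**Figure D4:**
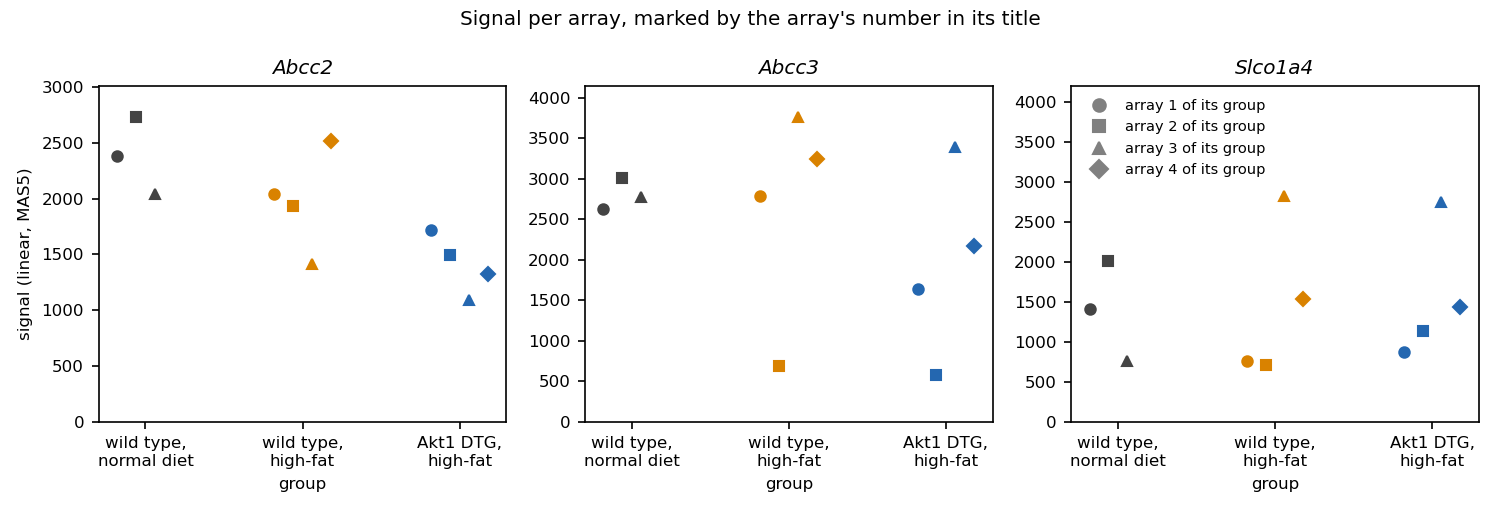
Linear signal of Abcc2, Abcc3 and Slco1a4 by group, 1 point per mouse, with the marker giving the array's number in its title. For Abcc3 the arrays numbered 2 (689 and 578) lie far below the rest of both high-fat groups, and for Slco1a4 the arrays numbered 3 (2818 and 2746) lie above them; the number is the mouse's label and is not stated to pair mice across groups.

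Abcg5 and Abcg8 encode the partners of the heterodimer that exports cholesterol and plant sterols into bile, and both are known targets of the oxysterol receptor LXR. The genes lie head to head on chromosome 17, and the 109 bases between their RefSeq starts (GRCm38.p6, chr17:84683012-84683120, given in the direction of Abcg8) are shown because both starts face this stretch. The capitals mark TATAAA on the opposite strand, in the direction of Abcg5 and 84 bases before its start.

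Abcg5 and Abcg8: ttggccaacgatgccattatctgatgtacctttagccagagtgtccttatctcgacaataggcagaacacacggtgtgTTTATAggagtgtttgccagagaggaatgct

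Abcg5 had signals of 2088.5, 1853 and 1552 in CN, 2041.5, 1543, 2278 and 2296 in CH, and 1794, 2057 and, in DH arrays 3 and 4, 1323 and 2182. Abcg8 had 1269.5, 1359 and 960.4 in CN, 1293, 1059, 1518 and 1254 in CH, and 1339, 1488, 756 and 920 in DH. All groups overlap for both genes. The lowest array of each group was the same for both in all 3 groups: CN array 3, CH array 2 and DH array 3. Their log2 signals had r = 0.676 over the 11 arrays and 0.654 within groups. DH array 4 departs from this, since it was the highest DH array for Abcg5 and the second lowest for Abcg8. Likeness of this size was not particular to the pair. Slc10a1 and Abcb4 had r = 0.891 over the 11 arrays and 0.881 within groups, and Slco1b2 and Abcg5 had 0.647 and 0.637.

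The differences for diet were 0.15 ± 0.19 for Abcg5 and 0.10 ± 0.22 for Abcg8, with intervals of -0.26 to 0.56 and -0.38 to 0.59 (limma adjusted p = 0.925 and 0.952). For the transgene they were -0.16 ± 0.17 and -0.23 ± 0.21, with intervals of -0.54 to 0.22 and -0.68 to 0.22 (limma adjusted p = 0.727 and 0.666). Without DH arrays 3 and 4 the transgene difference of Abcg8 was 0.15. A 2-fold change lies outside each of these intervals.

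**Figure D5:**
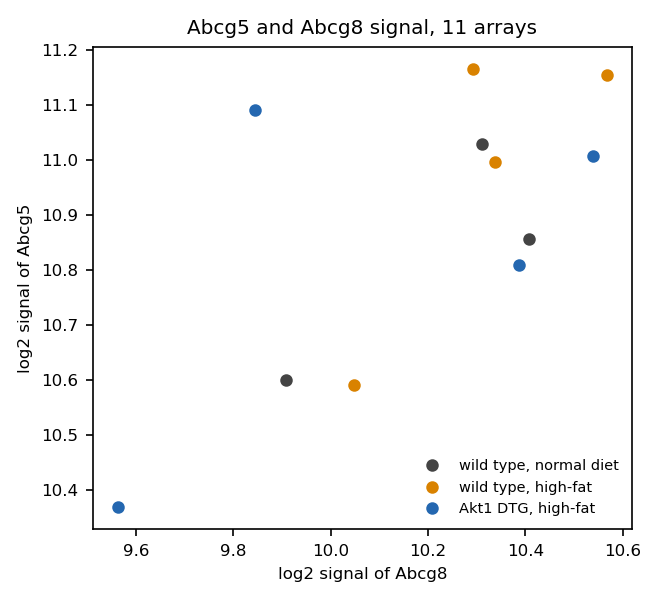
Log2 signal of Abcg5 (vertical axis) against Abcg8 (horizontal axis), with 1 point per mouse, coloured by group. The points rise together with r = 0.676, apart from DH array 4 at the upper left, and the groups are mixed.

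Other genes of bile formation were read from lists. Shares of all genes that passed were 0% for diet, 0.366% for the transgene and 2.08% for DH against CN. Shares without overlap of arrays were 7.91%, 8.4% and 15.6%. Among other sinusoidal carriers 0 of 13 passed in each comparison, with medians of 0.011 for diet, 0.039 for the transgene and 0.11 for DH against CN. Slc39a14, a zinc and iron carrier, had 0.59 ± 0.12 for the transgene (limma adjusted p = 0.0683), with every DH array above every CH array. Slc27a2, an acyl-CoA synthetase and fatty acid carrier, had 0.18 ± 0.12. For diet the smallest p belonged to the dicarboxylate carrier Slc13a3 (0.45 ± 0.20) and the lactate carrier Slc16a1 (-0.80 ± 0.37).

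Among other canalicular transporters and the scaffold proteins that hold them, 0 of 19 passed in each comparison. For the transgene 14 of 19 lay below 0, with a median of -0.14, and in DH against CN 14 of 19 with a median of -0.21. For diet the median was -0.048. Abcg2, the canalicular pump for sulfate conjugates and urate, had 0.55 ± 0.19 for diet and -0.54 ± 0.17 for the transgene (limma adjusted p = 0.658 and 0.21). Its mean signals were 2046 in CN, 3050.2 in CH and 2083 in DH. The cation exporter Slc47a1 had -0.40 ± 0.13 for the transgene (limma adjusted p = 0.215), with every DH array below every CH array. In DH against CN the smallest p in the list were those of the cytoskeletal linkers Rdx (-0.30 ± 0.11) and Msn (0.69 ± 0.30). Radixin, the product of Rdx, anchors canalicular pumps to actin.

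Nuclear receptors and liver transcription factors that act on transporter genes had 0 of 17 passing in each comparison, with medians of -0.067, -0.053 and -0.022. Nr1h4, which encodes FXR, had -0.41 ± 0.13 in DH against CN (limma adjusted p = 0.134), with mean signals of 1879 and 2475 and no overlap. Nfe2l2, which encodes NRF2, had -0.39 ± 0.15 for the transgene and -0.50 ± 0.16 in DH against CN (limma adjusted p = 0.267 and 0.128). Cebpb had 0.40 ± 0.16 for the transgene. For diet Ppara (0.20 ± 0.11) and Nr1h3 (0.18 ± 0.11), which encodes an LXR, had the smallest p.

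Of 14 bile acid synthesis and conjugation genes, 1 passed, in DH against CN, where 2.08% of all genes passed. Amacr, a racemase of side chain shortening, rose by 0.46 ± 0.11 (limma adjusted p = 0.0468). Medians were 0.070 for diet, -0.11 for the transgene and -0.044 for DH against CN. Baat, which conjugates bile acids to taurine, had -0.49 ± 0.12 for the transgene and Cyp7b1, an oxysterol hydroxylase, -0.80 ± 0.31 (limma adjusted p = 0.102 and 0.286). Both had every DH array below every CH array. Of 11 sterol efflux and trafficking genes 0 passed in each comparison, with medians of 0.086, 0.12 and 0.083. Abcg1, a relative of Abcg5 that exports cholesterol to lipoproteins, had 0.77 ± 0.23 in DH against CN (limma adjusted p = 0.114), where Abcg5 had -0.0090 ± 0.19 and Abcg8 -0.13 ± 0.22.

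Markers of other liver cells were read on the same arrays. Of 13 Kupffer cell and macrophage genes, 12 lay above 0 for diet, with a median of 0.60 and 0 passing, and 11 for the transgene, with a median of 0.54 and 0 passing. In DH against CN the median was 1.06. Here 2 of 13 rose, Cd5l (2.02 ± 0.46) and Folr2 (1.53 ± 0.34), against 2.08% of all genes passing. The summed signal of the 13 genes ran from 3624 to 6730 in CN, from 4941 to 12096 in CH and from 6143.5 to 16564 in DH. The 10 stellate cell genes tested had medians of 0.32 for diet and -0.15 for the transgene, with 0 passing. Of 10 bile duct genes on the array 2 were tested. Their medians were 1.22 for diet, -0.16 for the transgene and 1.06 in DH against CN, and 0 passed. Of these Krt23, a keratin, had 1.77 ± 0.52 for diet (limma adjusted p = 0.591). Every CH array lay above every CN array, where 7.91% of all genes had no overlap. Its mean signals were 48.1 in CN, 160 in CH and 135 in DH, so it passed the filter only through the high-fat groups. Krt19 and Epcam, the defining bile duct markers, did not pass the filter, and their groups overlapped. Krt19 had signals of 11.2 to 66.6 in CN, 13.1 to 47.3 in CH and 6 to 120 in DH. Epcam had 4.6 to 47.9 in CN, 8.1 to 49.4 in CH and 8.5 to 74.4 in DH. The medians describe the 2 tested genes alone, and bile duct cell content was not tested. Of 11 neutrophil genes on the array 2 were tested, of which Prtn3 rose by 4.89 ± 0.75 for the transgene and by 4.47 ± 0.81 in DH against CN. Prtn3 had mean signals of 25.0 in CN, 19.4 in CH and 604 in DH, so it passed the filter only through DH. The defining markers S100a8 and S100a9 did not pass the filter, with signals of 9.9 to 75.2 over all arrays. S100a8 had 22.1 to 25.6 in CN, 13 to 50.5 in CH and 51.4 to 75.1 in DH. S100a9 had 9.9 to 38.9 in CN, 12.1 to 54.5 in CH and 67.2 to 75.2 in DH. For both, every DH array lay above every CN and CH array. The part of these cells in the transporter values was not tested.

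The genes whose log2 signal was most like each transporter over the 11 arrays, of 7923 others, were taken as a description, since all share the same arrays. Stab1, the endothelial scavenger receptor, was nearest to Slco2a1, with r = 0.918 over all arrays and 0.897 within groups. Its signals were 341, 280.2 and 289 in CN, 216, 278, 238 and 219.6 in CH, and 269.8, 317, 246 and 235 in DH. Apoc4, an apolipoprotein, was nearest to Slc10a1 (r = 0.962) and the proteasome subunit Psmd1 to Abcb4 (r = 0.95). The others were Trappc10 for Slco1b2 (0.888), Zfp444 for Slco1a4 (0.908), Zfyve26 for Abcb11 (0.851), Chchd7 for Abcc2 (0.944), the deiodinase Dio1 for Abcg5 (0.888) and Uhrf1bp1 for Abcg8 (0.96). These bulk values do not show which cells carried the Slco2a1 RNA.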

How the data were processed

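The deposited values are linear intensity values (signal) that the authors made with MAS5, a name taken from the submitters' processing notes without a version. Each mouse gave 1 array. Members and lists were chosen with earlier results of these data known. Symbols were read from the platform table: of 22690 probe sets 20380 had 1 symbol and were used, 691 had several, 1555 had none and 64 were controls. Signals under 1 (1386 values) were set to 1 and log2 was taken. Probe sets under the 40th percentile of mean log2 (signal 53.0) were left out, and the one of highest mean stood for its gene.

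Limma 3.58.1 in R 4.3.3 (lmFit, eBayes with trend) was fitted to all 11 arrays with a mean per group. Tests were two-sided, adjusted by Benjamini-Hochberg over 7924 genes, with a threshold of 0.05. Errors after ± of log2 differences are limma's standard errors, and intervals are 95%. Values of second and further probe sets came from a fit over all 20380. The text names all members and, in each list and comparison, at most 3 genes that passed, by size of change, or else the 2 with the lowest p. Likeness was the highest Pearson r. Lists cover sinusoidal carriers, canalicular proteins, regulators, bile acid and sterol genes, acute phase proteins and cell markers. The number of arrays limits precision. In simulated data over 7924 genes, 100 genes were given a 2-fold and 100 a 4-fold change in each comparison. Of the 2-fold changes, 69% were recovered for diet, 79% for the transgene and 60% for DH against CN. False calls numbered 9, 4 and 11. The real comparisons had 0, 29 and 165 calls, so recovery in the real data may be lower than in the simulation. Alternatives changed the normalization, pseudocount, filter, variance model, array weights and arrays used, or added the array number as a block.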

Additional observations from a re-analysis of the deposited data

How the results depend on the processing

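Over 540 refits of a member's difference, 501 kept the sign, 39 changed it (0 of these with an adjusted p under 0.05), and 1 passed in limma. That was Abcc2 in DH against CN with the replicate block (-0.82, limma adjusted p = 0.0294), where the count of transporters was 1. Over all its alternatives that adjusted p ran from 0.0294 to 0.284. Deviations of same-numbered arrays correlated at -0.0721 to 0.0287 for diet, 0.0842 to 0.292 for the transgene and -0.0592 to 0.111 for DH against CN. Those for the transgene were all above 0. The numbers are not stated to pair mice, and the main fit has no block. With the block the diet gave 2 genes, and its differences became -0.0085 for Slc10a1, -0.029 for Slco1b2 and -0.027 for Abcb4. Array weights gave 1 gene for diet and 58 for the transgene, and in DH against CN Slco1a4 at -0.065 and Abcg5 at 0.033. Quantile normalization turned Slc10a1 to -0.014 for the transgene and to -0.0058 in DH against CN, and Abcg5 there to 0.029. The transgene's 29 genes were 12 with no filter on dim probe sets, 0 without the variance trend and 8 with only the groups compared. The 165 of DH against CN were 81 without the trend and 104 with only the groups compared. Without DH arrays 3 and 4 the counts were 4 and 23. Then the transgene differences were -0.11 for Slc10a1, -0.31 for Slco1a4, -0.088 for Abcb4 and 0.15 for Abcg8, and in DH against CN they were -0.069 for Slc10a1, -0.38 for Slco1a4, -0.072 for Abcb4, 0.080 for Abcg5 and 0.25 for Abcg8. Leaving out single arrays gave 0 to 2 genes for diet (2 without CN array 2), 0 to 64 for the transgene (0 without CH array 1, 64 without CH array 2) and 36 to 162 in DH against CN (36 without DH array 4), with 0 transporters in each. Diet differences then ran from -0.0061 to 0.11 for Slc10a1, -0.040 to 0.19 for Slco1b2, -0.47 to 0.25 for Slco1a4, -0.066 to 0.13 for Abcb4, -0.60 to 0.21 for Abcc3 and -0.048 to 0.20 for Abcg8. Transgene differences ran from -0.14 to 0.58 for Slco1a4 and -0.999 to 0.057 for Abcc3. In DH against CN they ran from -0.26 to 0.43 for Slco1a4, -0.11 to 0.33 for Abcb11, -0.12 to 0.14 for Abcg5 and -0.28 to 0.048 for Abcg8. The cause of these changes was not tested.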
